A study of Rattus norvegicus with 42 samples.

Results

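Soleus and extensor digitorum longus (EDL) of the same rats were compared on the first day of reloading, a phase named R1. All 6 libraries of that phase were used, which is 6 of the 42 libraries of the experiment, and they were chosen by their labels alone. The animals were mature Wistar rats with no genetic change named in the labels. Rats U18, U20 and U21 had been unloaded by tail suspension for 7 days and then moved freely in the cage for 24 hours, and each gave 1 soleus and 1 EDL library. The comparison was therefore made within each rat. Control rats (U6, U7 and U8) stayed active and D7 rats (U1, U2 and U3) had the same 7 days of unloading with no reloading, while the remaining phases were unloading for 1 or 3 days (D1 and D3) and reloading for 3 or 7 days (R3 and R7), with 3 rats in each of the 7 phases.

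Soleus is a postural hindlimb muscle built mainly of slow, oxidative fibres, and EDL is a fast muscle that lifts the toes. Slow and fast fibres differ in the myosin heavy chain they carry, the motor protein of the thick filament, and the genes of the fast and developmental chains stand in a row on 1 chromosome. Unloading removes the weight that soleus normally bears and leads to its wasting, and the return of weight is a strong mechanical stimulus to the same muscle. Cap analysis of gene expression (CAGE) reads the capped 5′ ends of RNA, so each tag marks a transcription start site (TSS) and each peak a cluster of neighbouring starts.

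The table held 9971 TSS peaks, of which 2 on the mitochondrial chromosome were left out. Of the other 9969, 9799 passed the filter on low counts and 170 were not tested. Library depth ran from 2635926 tags (EDL of U20) to 18200465 tags (soleus of U21), with 12558292 or more in each soleus library and 10268505 or fewer in each EDL library, so EDL values are the less precise. Mitochondrial tags took 6.85, 10.7 and 9.03% of the EDL libraries and 6.48, 5.66 and 5.25% of the soleus libraries of U18, U20 and U21, higher in EDL in each rat, and the part of this in the peak differences was not tested. All 6 libraries were sequenced in lane 4. Peaks are named by their position in Rnor_6.0, the build of the deposited tables, and carry no gene names apart from the myosin region, since no annotation of that build was used. For the same reason the muscles could not be checked against lists of fibre or cell type markers. In whole muscle, fewer cells of a type and less RNA per cell cannot be told apart.

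Soleus and EDL differed at a large part of their start sites on this day. With the threshold of an adjusted p under 0.05 (edgeR quasi-likelihood test, animal as a block) and a difference of more than 2.38-fold, 3171 of 9799 peaks were called (32.4%). Of these, 1921 were higher in soleus (19.6%) and 1250 were higher in EDL (12.8%), with median log2 fold changes (soleus over EDL) of 2.35 and −2.33. More than 4-fold differences were found in 1181 of the soleus-higher and 717 of the EDL-higher peaks, and more than 32-fold differences in 343 and 234. These counts include peaks with no tag in the lower muscle, for which the fitted size is no bound. The direction was the same in all 3 rats for 1920 of the soleus-higher and 1250 of the EDL-higher peaks, against 73.0% of all tested peaks. The 3 soleus values did not overlap the 3 EDL values in 1867 and 1217 of them, against 57.4% of all tested peaks. The size threshold lay in a dense part of the distribution: among peaks with an adjusted p under 0.05, 627 lay within 0.25 below it and 543 within 0.25 above it on the log2 scale.

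**Figure D1:**
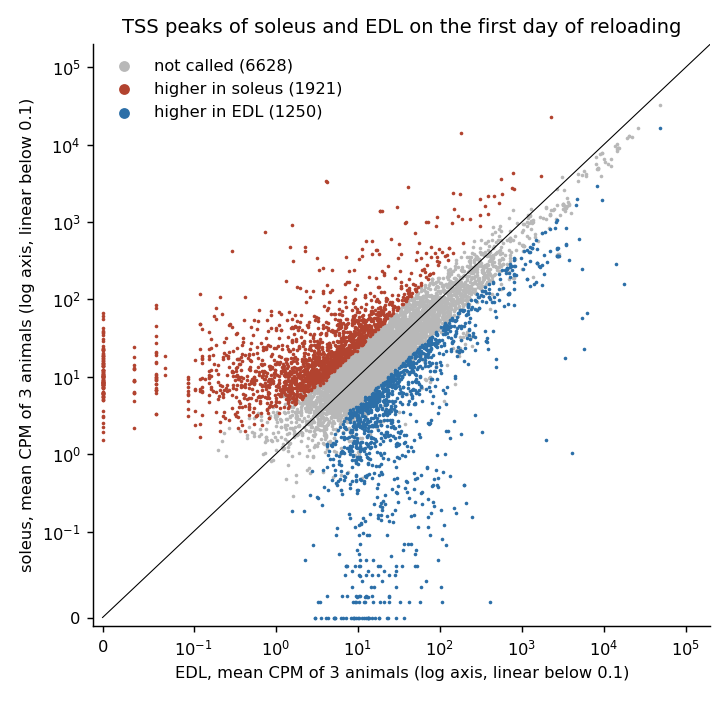
Mean level of each tested TSS peak in EDL (horizontal axis) and in soleus (vertical axis) at R1, in CPM on log scales, with the called peaks coloured by direction. The 1921 soleus-higher and 1250 EDL-higher peaks lie away from the diagonal on both sides, over the whole range of levels.

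The balance between the directions depended on how the libraries were scaled. Composition factors (TMM) were 1.16 or more in the soleus libraries and 1.11, 0.650 and 0.824 in EDL of U18, U20 and U21, so they moved with the muscle. Without them, 2884 peaks were called higher in soleus and 933 in EDL, so the soleus share rose from 60.6 to 75.6% of the calls and the median log2 fold change of all peaks from 0.06 to 0.54. All 1921 soleus-higher calls were still made on that scale, but 839 of the 1250 EDL-higher calls were.

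Levels are given in CPM, tag counts scaled to library size. The median soleus-higher peak had a mean of 16.2 CPM in soleus and 3.02 CPM in EDL, and the median EDL-higher peak 26.02 CPM in EDL and 4.24 CPM in soleus, against medians over all tested peaks of 13.7 CPM in soleus and 12.3 CPM in EDL. Soleus-higher peaks held 20.04% of the peak tags in soleus and 2.38% in EDL, whereas EDL-higher peaks held 27.1% in EDL and 8.10% in soleus. In EDL the share held by EDL-higher peaks was close among rats (27.5, 26.5 and 26.8% in U18, U20 and U21). In soleus the share held by soleus-higher peaks ran from 15.8% in U21 and 18.4% in U20 to 27.3% in U18. No tag was seen in any EDL library for 121 soleus-higher peaks, and none in any soleus library for 34 EDL-higher peaks. These were all the tested peaks of that kind, 121 and 34. Such a peak could pass the filter on low counts only through the other muscle, so the counts are a description only. Each EDL library was shallower than each soleus library, and the part of depth in the contrast between these counts was not tested. Peak width was close in the groups, with medians of 209 nt for soleus-higher, 213 nt for EDL-higher and 208 nt for all tested peaks.

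The largest block of EDL-higher peaks was the tandem myosin heavy chain region on the plus strand of chromosome 10. Of its 113 peaks, 106 were tested and called higher in EDL, against 12.8% of all tested peaks, and 7 were not tested. No peak of the region exceeded 2.84 CPM in any soleus library, so a peak could pass the filter on low counts through EDL alone, and the count is a description only. The 94 peaks that reached 10 CPM in either muscle had log2 fold changes from −11.56 to −5.79, with a median of −8.47. The authors' browser view places Myh4, the heavy chain of the fastest fibres, in the array of 35 peaks at chr10:53778241-53800524. By gene order in RefSeq, Myh2 and Myh1, the heavy chains of the other fast fibre types, are the coding genes just before Myh4, where an array of 62 peaks lay at chr10:53711560-53764563. These genes have near-identical stretches and the authors kept reads that mapped to several places, so the split of tags between them is uncertain.

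Stretches from the RefSeq promoter windows of these genes (assembly GRCr8, gene strand, 250 bases before to 50 after the annotated start) are shown because the 3 genes share them before their starts. The capitals mark a run of 20 letters common to the 3 genes, whose first base is at position −170 in Myh2, −166 in Myh1 and −177 in Myh4, counted from the start.
Myh2: agaaaAATATTTCTAATTATATCCAaccat
Myh1: gagggAATATTTCTAATTATATCCAaacat
Myh4: caagaAATATTTCTAATTATATCCAttcac
Searched on either strand, the same run was found in 5 of 33469 promoter windows (0.0149%), the remaining 2 being windows of the noncoding gene LOC102555216 that lies between Myh1 and Myh4. The strand of those 2 matches, and whether their windows overlap those of the myosin genes, was not checked. A second set shows the TATA-type motif TATAAAAG in capitals, first base at −30 in Myh2, −33 in Myh1 and −45 in Myh4.
Myh2: atagctagccaTATAAAAGagttccgaacg
Myh1: atatttgatccTATAAAAGtaccccttgga
Myh4: agaacggcctcTATAAAAGtgaagctttgg
On either strand this motif was present in 567 of 33469 windows (1.69%), the window of the embryonic gene Myh3 among them and that of the perinatal gene Myh8 not. These matches describe the letters in the windows, and no binding was measured.

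Summed over its 35 peaks, the Myh4 array gave 3.11, 0.584 and 4.72 CPM in soleus and 1819, 2178 and 1115 CPM in EDL of U18, U20 and U21. The muscles were far apart in every rat, with means of 2.80 ± 2.08 and 1704 ± 541 CPM (SD, n = 3) and a 607-fold ratio, which was 1081-fold without U21 and 375-fold without U20. The array of 62 peaks gave 11.3, 3.14 and 27.1 CPM in soleus and 2451, 4430 and 3150 CPM in EDL. Here too the groups did not overlap, and the ratio of the means (3344 ± 1004 over 13.9 ± 12.2 CPM, SD, n = 3) was 241-fold, or 475-fold without U21 and 146-fold without U20. Beyond Myh4, where Myh8 is next in order, 5 peaks at chr10:53837874-53843893 summed to 0.222, 0 and 0.697 CPM in soleus and 146, 298 and 170 CPM in EDL. The minus strand of the region held 13 peaks, of which 11 were tested and called higher in EDL, a count with the same limit.

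The soleus level of the 62-peak array at R1 had the lowest mean of soleus in any phase, although 1 soleus library of D3 was at 9.99 CPM. These sums across phases come from 1 normalization of all 42 libraries and so differ slightly from those above. Soleus libraries gave 469, 706 and 128 CPM in control rats, 284, 71.1 and 78.4 CPM at D7 and 10.8, 2.88 and 24.8 CPM at R1. The 3 R1 values lay below all control and D7 values, while EDL held 2366, 4180 and 3097 CPM in control rats and 2205, 3806 and 2821 CPM at R1. The muscle difference at R1 was larger toward EDL than in control rats for 34 of the 62 peaks, against 5.15% of all peaks called in that direction, and than at D7 for 2 of 62, against 4.97%. In the Myh4 array soleus was at 25.03, 38.7 and 6.91 CPM in control rats and 2.96, 0.535 and 4.32 CPM at R1, and the difference from control was called for 1 of 35 peaks.

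Other EDL-higher peaks were as nearly restricted to EDL. Of the 15 largest log2 fold changes among peaks of at least 10 CPM, 6 lay in the plus-strand myosin region and 8 had no tag in any soleus library. The ranking favours peaks with no soleus tag, so the latter count is a description only. The largest was at chr1:100530107-100530305 (minus strand), with 0, 0 and 0.0536 CPM in soleus and 656, 298 and 286 CPM in EDL (log2 fold change −13.51, SE 0.61, adjusted p = 0.000466). With so few soleus tags, the SE here and in the peaks below comes from the test statistic and does not measure precision. The largest peak belonged to an array of 7 peaks at chr1:100519890-100530305, all called, against 12.8% of all tested peaks. The array summed to 0.0741, 0 and 0.0536 CPM in soleus against 740, 441 and 371 CPM in EDL. The most abundant of the 15 was at chr7:119443532-119443719 (minus strand). It gave 1.93, 0.438 and 0.750 CPM in soleus and 3295, 5559 and 3394 CPM in EDL (−12.04, SE 0.80, adjusted p = 0.000524). Another, at chr1:220136327-220136534 (minus strand), gave 3.78, 0.511 and 0.214 CPM in soleus and 2909, 1832 and 1199 CPM in EDL (−11.04, SE 0.78). The groups did not overlap in any of these peaks. All 15 were also called higher in EDL in each of the other 6 phases, against 5.44 to 7.17% of all peaks. For none of the 15 was a change of the muscle difference from control or D7 called. The fit gave no usable standard error for 4 of them against control and for 3 against D7.

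**Figure D2:**
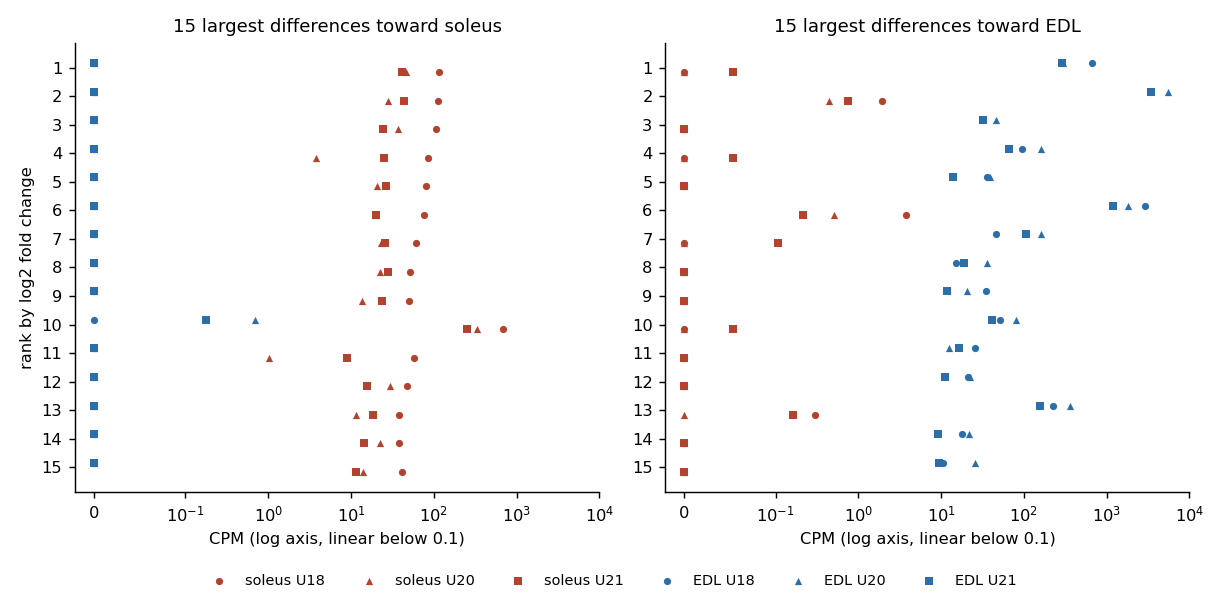
Level of the 15 most soleus-higher and the 15 most EDL-higher TSS peaks in each of the 6 R1 libraries, in CPM on a log scale, with colour for the muscle and marker shape for the rat. The soleus and EDL points are apart in every peak, and in all 15 soleus-higher peaks the U18 soleus library is the highest.

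EDL-higher calls were often grouped along the genome. Peaks of 1 strand less than 5000 nt apart were joined, which gave 8094 loci, 7334 of them single peaks and 90 arrays of 5 or more. Such arrays held 25.9% of the EDL-higher calls and 9.06% of the soleus-higher calls, against 10.7% of all tested peaks. The myosin arrays with 62 and 35 EDL-higher calls are among them, and the share without the myosin region was not computed. Counted by locus, 1593 had a soleus-higher call, 831 an EDL-higher call and 11 both.

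The arrays named next were picked by their number of calls. Their counts of called peaks are a description only, and 12.8% of all tested peaks were called higher in EDL. After the myosin arrays, the array with the most EDL-higher calls was chr1:197855948-197875279 (minus strand), where 20 of 20 peaks were called. It summed to 417, 198 and 211 CPM in soleus and 8024, 6036 and 4505 CPM in EDL, 22.5-fold apart with no overlap. Next came 12 of 13 peaks at chr14:46639982-46655667 (minus strand), with 5974, 1507 and 1845 CPM in soleus and 7345, 35146 and 15382 CPM in EDL (6.21-fold). The muscles of U18 were close to each other there, and the ratio was 15.1-fold without U18 and 2.91-fold without U20. Arrays with 8 of 8 peaks called lay at chr10:57277633-57283192 (plus strand, 10.8-fold), chr1:221756131-221764839 (plus strand, 8.26-fold), chr14:46517628-46526133 (minus strand, 6.91-fold) and chr1:80321245-80331809 (plus strand, 3.67-fold). At the chr14 array of these, U18 again had close values (2211 CPM in soleus and 2797 CPM in EDL), and the ratio was 17.0-fold without U18 and 3.15-fold without U20. Reads that mapped to several places were kept, and whether both chr14 arrays are separate measurements was not tested. At D3 the mean was higher in soleus at both, with 5971 against 5128 CPM at the larger array (SD 6635 and 5365) and 2451 against 1939 CPM at the other. A different course was seen at chr5:59017471-59026026 (minus strand), where 8 of 9 peaks were called. On the scale of all 42 libraries its sums at R1 were 1885, 3760 and 2901 CPM in soleus and 8094, 7192 and 7992 CPM in EDL, and the groups did not overlap. In control rats soleus (7469, 6438 and 8915 CPM) and EDL (6651, 6089 and 7570 CPM) overlapped, as they did at D7, and the R1 difference was called as larger toward EDL than in control rats for 8 peaks, against 5.15% of all peaks, and than at D7 for 7, against 4.97%.

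The strongest soleus-higher peaks were start sites with almost no tags in EDL. Of the 15 largest, 14 had no tag in any EDL library at R1. The ranking by log2 fold change favours such peaks. They passed the filter on low counts through soleus alone, so the count is a description only. The first was at chr1:261803805-261803952 (plus strand), with 115, 46.2 and 41.4 CPM in soleus and 0 in each EDL library. Against the limit of 3 tags over the EDL group it was at least 378-fold higher in soleus, and the same bound for the other 13 ran from at least 124-fold to at least 346-fold. These bounds rested on U18: against the same limit, the mean of U20 and U21 gave at least 245-fold for the first peak and at least 27.9-fold to at least 201-fold for the other 13. In soleus of control rats the same peak was at 0.292, 0.2497 and 0.135 CPM, at D7 at 0.549, 0.176 and 0.276 CPM and at R3 at 2.29, 1.87 and 1.98 CPM.

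One of the 15 had tags in both muscles, at chr18:32320690-32321035 (plus strand). It gave 678, 331 and 252 CPM in soleus and 0, 0.690 and 0.178 CPM in EDL (log2 fold change 11.62, SE 0.83, adjusted p = 0.000542). Soleus at D7 held 0.916, 0 and 0 CPM and EDL at D7 0.279, 0.877 and 0.0680 CPM. The muscle difference was larger at R1 than at D7 by 11.91 on the log2 scale (SE 2.41, adjusted p = 0.00359), a call that stood in every alternative run for it. The change from control rats was 7.62 (SE 4.18) and was not called (adjusted p = 0.246). In the fit of 42 libraries the peak was also called at R7, with a log2 difference of 10.85 (adjusted p = 0.000201) against 11.72 at R1, and soleus at R7 gave 0.286, 2.08 and 42.2 CPM with no tag in EDL.

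Of these 15, 14 were tested in the fit of all 42 libraries, the exception being chr1:220265860-220265900. Of the 14, 1 was called higher in soleus in control rats, 0 at D1, 1 at D3, 1 at D7, 3 at R3 and 5 at R7. The shares of all tested peaks were 7.40, 6.01, 5.45, 5.00, 6.51 and 8.78% in the same order, and the difference was not tested. During unloading 3 of the 14 were called higher in EDL, namely chr1:261803805-261803952 at D3 (log2 difference −3.87), chr12:12025508-12025565 at D3 (−5.25) and chr18:32320690-32321035 at D1 (−6.20) and D3 (−3.82). Of all tested peaks, 6.74% at D1 and 6.62% at D3 were called higher in EDL. Soleus of U18 was the highest of the 3 soleus libraries in all 15, against 4433 of all 9799 tested peaks. An example is chr6:146123854-146124110 (minus strand), with 85.8 CPM against 3.79 and 25.1 CPM in U20 and U21. All 15 calls stood without U18.

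Some soleus-higher arrays had a higher mean in soleus than in EDL in every phase. Of these, chr15:33634468-33657899 (minus strand) had 35 of 36 peaks called and chr15:33607830-33627846 on the same strand 18 of 18, against 19.6% of all tested peaks. The soleus-higher arrays here and below were picked by their number of calls, so such counts are a description only. The longer array summed to 724, 1116 and 1063 CPM in soleus and 46.8, 174 and 207 CPM in EDL at R1 (6.79-fold). The groups did not overlap. On the scale of all 42 libraries, soleus gave 687, 1023.5 and 974 CPM at R1. That was lower than in control rats (2868, 3211 and 1859 CPM) or after 7 days of unloading (2615, 2397 and 2508 CPM). The difference between muscles was called as smaller at R1 than in control rats for 20 of the 36 peaks of this array and for 11 of the 18 in its neighbour, against 5.15% of all peaks. It was called as smaller than at D7 for 1 of the 36 and 0 of the 18, against 4.97% of all peaks. A similar course was seen at chr1:72889011-72899711 (plus strand). There all 10 peaks were called at R1, with 3481, 5468 and 4879 CPM in soleus and 281, 771 and 1453 CPM in EDL, while control soleus held 9585, 7823 and 14714 CPM. The muscle difference was called as smaller at R1 than in control rats for 6 of these 10 peaks and than at D7 for 0, against 5.15 and 4.97% of all peaks.

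Other arrays had their highest soleus mean at R1, and the descriptions overlap, since chr5:57028361-57039447 and chr9:17817604-17822774 (plus strand) had both features. The array at chr6:135045020-135050425 (minus strand, 8 of 8 peaks called) gave 3200, 788 and 763 CPM in soleus and 21.9, 25.5 and 24.7 CPM in EDL, 65.9-fold apart (30.9-fold without U18). Soleus held 29.1, 27.3 and 31.3 CPM of it in control rats and 16.1, 17.0 and 23.7 CPM at D7. The muscle difference was called as larger toward soleus at R1 than at D7 for 6 of its peaks, against 10.5% of all peaks, and than in control rats for 3, against 5.92%. Near-equal sums were found at chr6:135107489-135113023 (minus strand), the chr5 array (plus strand) and chr13:6344438-6347581 (minus strand), with 3208, 3287 and 3049 CPM in soleus of U18. Reads that mapped to several places were kept, and whether these 4 arrays are separate measurements was not tested. In all 4, soleus of U18 was more than 3 times the other 2 soleus libraries.

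The array at chr4:56710804-56738725 (plus strand, 13 of 14 peaks called) changed its order between muscles over the phases. At R1 soleus gave 4758, 1779 and 1255 CPM and EDL 255, 136 and 135 CPM (14.8-fold). At D1 soleus held 196, 255 and 272 CPM and EDL 628, 1944 and 1024 CPM, so that EDL was then the higher muscle in each rat. The muscle difference was larger at R1 than at D7 for 13 of the 14 peaks, against 10.5% of all peaks, and larger than in control rats for 5, against 5.92%.

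**Figure D3:**
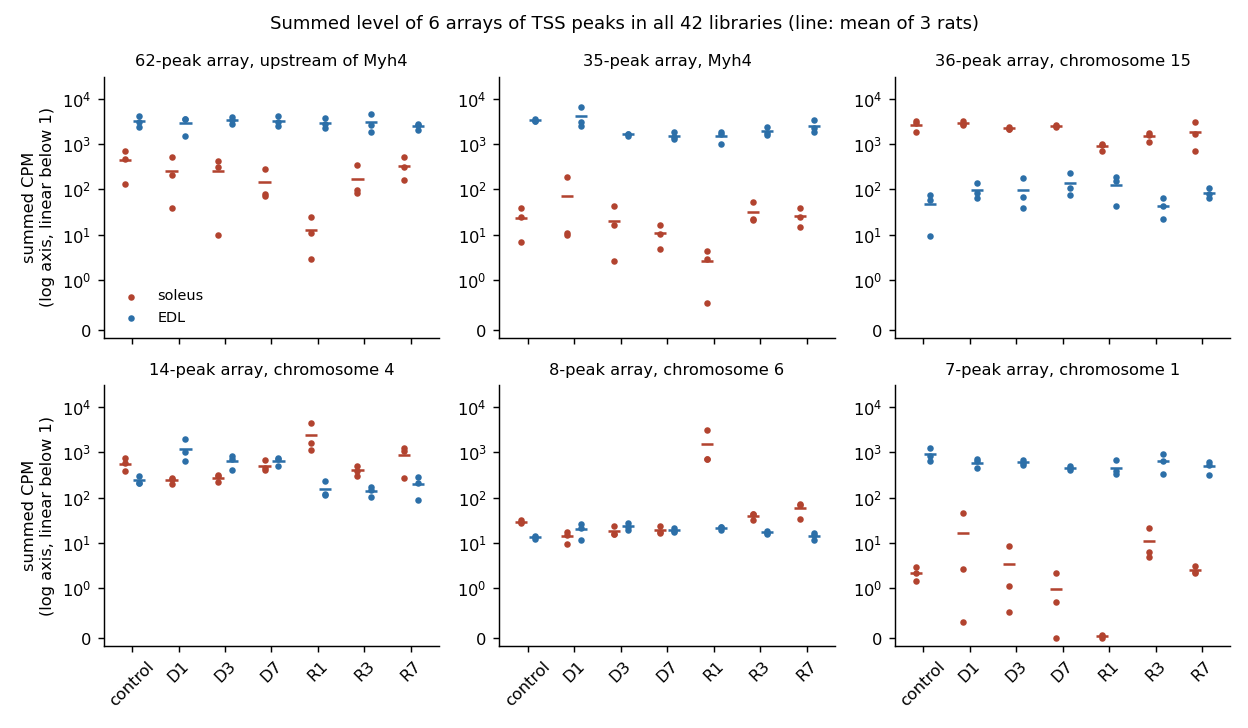
Summed level of 6 peak arrays in each soleus and EDL library over the 7 phases, in CPM on a log scale, from the normalization of all 42 libraries. The 2 myosin arrays and the 7-peak array of chromosome 1 are higher in EDL in every phase, the 36-peak array of chromosome 15 is higher in soleus, and the arrays of chromosomes 4 and 6 reach their highest soleus means at R1.

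Among the 10 most abundant peaks, 2 were called. The peak at chr8:55178466-55179112 (plus strand) gave 28646, 23380 and 16242 CPM in soleus and 1097, 3366 and 2433 CPM in EDL at R1 (log2 fold change 3.39, SE 0.58, adjusted p = 0.00548). All soleus values were above all EDL values, although the call was lost without U21 (3.75, adjusted p = 0.0694). At D7 the order was 2583, 2826 and 2389 CPM in soleus and 3013, 3971 and 2753 CPM in EDL, and the muscle difference was larger at R1 by 3.77 (SE 0.61, adjusted p = 0.000457). In control rats it was already higher in soleus (5833, 4993 and 5053 CPM against 881, 695 and 1096 CPM), and the difference between R1 and control of 0.87 (SE 0.60) was not called (adjusted p = 0.355).

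The other called peak, at chr19:56676367-56677617 (minus strand), gave 7211, 25022 and 17732 CPM in soleus and 35994, 45981 and 63778 CPM in EDL (−1.68, SE 0.53, adjusted p = 0.0409). The groups did not overlap, but the call was lost without U18 (−1.40, adjusted p = 0.214), without U21 (−1.60, 0.406) and with no animal block (−1.54, 0.0732). It was also lost with no composition factors, where the log2 fold change was −1.19. The remaining 8 had log2 fold changes from −0.73 to −0.48 and adjusted p from 0.231 to 0.424. Of the 10, 3 had counts within 5% of another peak in every library. The search took only peaks with at least 1000 tags over the 6 libraries, and a difference of 3 tags was allowed. It found 41 groups of such near-equal peaks with 100 peaks in all, 27 of them called. These peaks took 15.4 to 18.4% of the peak tags in soleus and 18.7 to 25.4% in EDL. With each group counted once, 3155 peaks were called, 1918 higher in soleus and 1237 in EDL.

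R1 had more calls between the muscles than any other phase. In a fit of all 42 libraries, in which 9944 peaks were tested, 3298 were called at R1 (33.2%), 1330 in control rats (13.4%) and 1038 at D7 (10.4%). The R1 calls divided into 2051 higher in soleus (20.6%) and 1247 higher in EDL (12.5%). Control rats had 736 (7.40%) and 594 (5.97%) and D7 had 497 (5.00%) and 541 (5.44%). During unloading, 598 (6.01%) and 670 (6.74%) were called after 1 day and 542 (5.45%) and 658 (6.62%) after 3 days. During later reloading the counts were 647 (6.51%) and 643 (6.47%) for R3 and 873 (8.78%) and 713 (7.17%) for R7. The 42-library fit estimated 1 spread for all phases. Between control, D7 and R1, phase and sequencing lane cannot be told apart. Control libraries were in lane 1, R1 libraries in lane 4 and D7 libraries in lane 3, apart from the EDL of U3 in lane 6. The 2 muscles of a rat shared a lane in every other control, D7 and R1 pair. Other phases shared some lanes with these and with each other. In each other phase 1 rat also had its muscles in different lanes, namely U24 at D1, U10 at D3, U4 at R3 and U13 at R7.

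**Figure D4:**
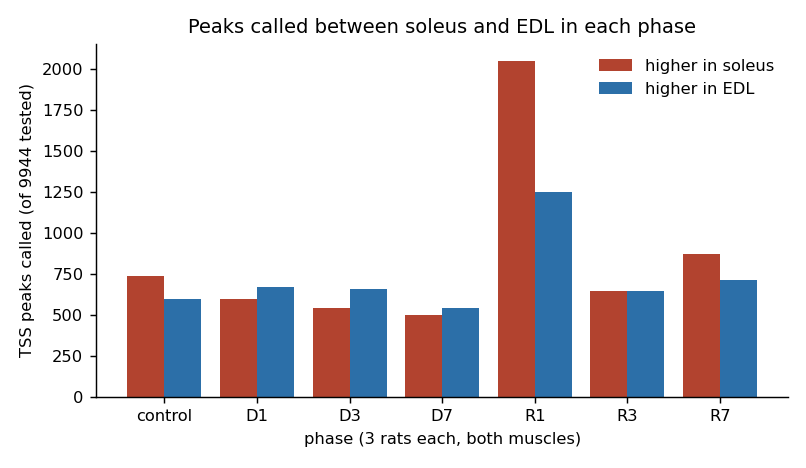
Number of TSS peaks called higher in soleus and higher in EDL in each of the 7 phases, from the fit of all 42 libraries. R1 stands at 2051 and 1247 peaks, against 497 to 873 and 541 to 713 in the other phases.

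The EDL-higher peaks of R1 were more often EDL-higher in other phases than the soleus-higher peaks were soleus-higher. Of the 1250 EDL-higher peaks, 517 (41.4%) were called the same way in control rats, where 5.97% of all peaks were, and 321 in all 6 other phases. Of the 1916 soleus-higher peaks in the 42-library table, 430 (22.4%) were called the same way in control rats, where 7.40% of all peaks were, and 174 in all 6. The difference between these shares was not tested. The median log2 difference of the soleus-higher peaks was 0.75 in control rats, 0.06 at D1, 0.26 at D7, 2.41 at R1 and 1.01 at R3, against 0.16, 0.07, 0.06, 0.13 and 0.15 for all tested peaks. For the EDL-higher peaks it was −1.07 in control rats, −1.17 at D1, −0.78 at D7, −2.27 at R1 and −1.53 at R3. The R1 medians follow from the choice of the peaks by their R1 call.

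Peaks called at R1 and in no other phase in the same direction numbered 1146 for soleus (59.8%) and 528 for EDL (42.2%). A call in the opposite direction elsewhere did not exclude a peak. Calls at R1 were taken from the fit of 6 libraries and those of the other phases from the fit of 42. In the soleus class the median level was 22.2 CPM in soleus of U18, 12.7 in U20 and 12.5 in U21. U18 was the highest soleus library for 934 of 1146, against 4433 of all 9799 tested peaks. Among the 174 soleus-higher peaks called in every phase, U18 was the highest for 25. Without U18, 979 of the 1146 were still called, and without U21, the deepest pair of libraries, 814 were. In the EDL class U20, the shallowest EDL library, was the highest for 364 of 528, as it was for 223 of the 321 EDL-higher peaks called in every phase. Over all 9799 tested peaks U20 was the highest EDL library for 3378. In the fit of 42 libraries, 443 of these 528 were called at R1, and 1136 of the 1146 of the soleus class. Of the 528, 309 were still called without U20, 245 without U21 and 223 with no composition factors. The 321 EDL-higher peaks called in every phase kept 320, 309 and 319 calls under the same changes.

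Since a call in 1 phase and none in another does not show a difference, the muscle differences themselves were compared. The R1 difference differed from that of control rats in 1101 peaks (11.1%), being larger toward soleus in 589 (5.92%) and toward EDL in 512 (5.15%). By the sign of the fitted values, 351 of the 589 were higher in soleus in both phases and 233 changed sign. Of the 512, 165 were higher in EDL in both, 127 higher in soleus in both and 220 changed sign. Over all peaks, 21 were called in both phases in opposite directions. These peaks had moved mainly in soleus: in the 589 the median log2 change from control to R1 was 2.25 for soleus libraries and −0.11 for EDL libraries, and in the 512 these were −1.56 and 0.38. The test itself chose them, so these medians are a description, and over all tested peaks they were 0 and 0.05. Single rats moved the count and its balance: 656 peaks were called without U18 of R1 (304 toward soleus and 352 toward EDL) and 497 without U6 of the control rats (324 and 173).

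Against D7, 1535 peaks differed (15.4%), 1041 larger toward soleus (10.5%) and 494 toward EDL (4.97%). In the 1041 the median log2 change from D7 to R1 was 2.05 for soleus and −0.32 for EDL, and in the 494 these were −1.33 and 0.34. Of the 1041, the fitted value changed sign between D7 and R1 in 626, and over all peaks 34 were called in both phases in opposite directions. Without U3 of D7, whose muscles were in different lanes, 1010 peaks were called (676 toward soleus and 334 toward EDL). The counts toward soleus and EDL were 656 and 442 without U18 of R1, 812 and 314 without U20 of R1, and 871 and 297 with no composition factors. The R1 differences correlated with those of control at r = 0.644, of D7 at 0.558, of D1 at 0.406 and of R3 at 0.753 across 9944 peaks, which are not independent replicates and share 1 normalization.

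**Figure D5:**
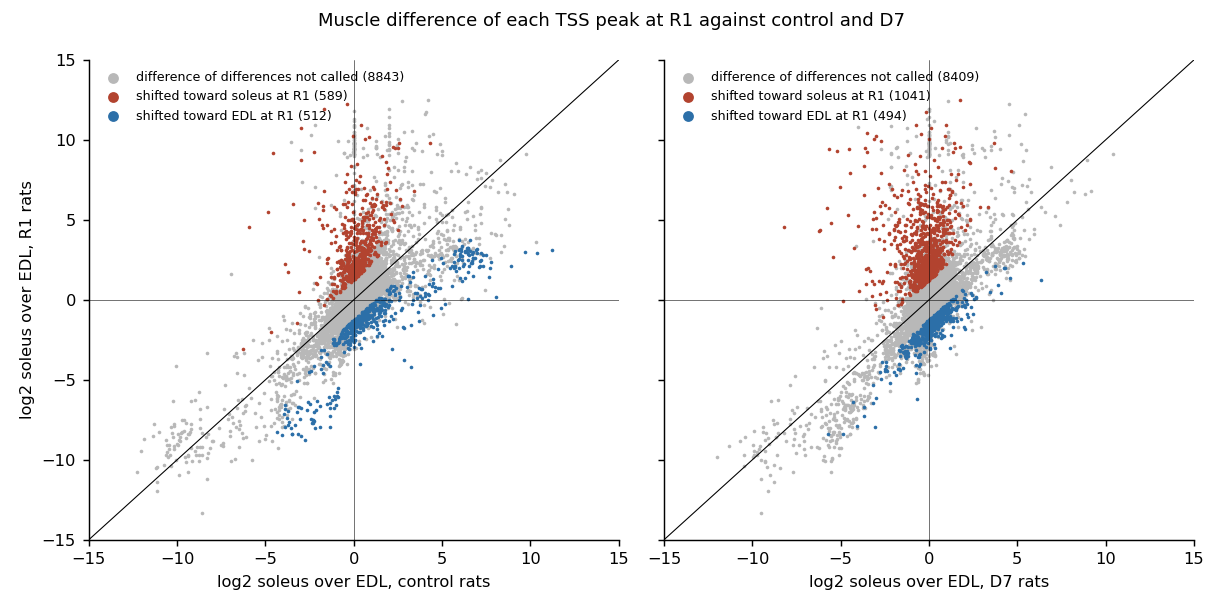
Soleus-over-EDL log2 difference of each TSS peak at R1 (vertical axis) against that in control rats and at D7 (horizontal axes), with peaks whose difference was called as changed in colour. Called peaks lie above the diagonal (589 against control and 1041 against D7) and below it (512 and 494).

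Among the peaks with the largest changes, chr6:6328318-6328656 (minus strand) reversed its order on this day. At R1 it gave 85.8, 21.01 and 26.1 CPM in soleus and 2.78, 0.690 and 1.78 CPM in EDL, with no overlap. In control rats soleus held 0.0730, 0.125 and 0.135 CPM and EDL 7.27, 6.69 and 7.44 CPM. At D7 no soleus library had a tag and EDL held 2.51, 5.26 and 2.65 CPM. The peak was called higher in EDL in all 6 other phases. The R1 difference exceeded that of control by 10.50 (SE 0.77, adjusted p = 3.11e-06).

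A change toward EDL was called at chr7:118130302-118130443 (plus strand). Soleus gave 0.964, 3.65 and 2.30 CPM and EDL 14.7, 17.3 and 19.9 CPM at R1 (log2 fold change −3.07, SE 0.39, adjusted p = 0.00195), and the groups did not overlap. Soleus held 14.2, 9.73 and 10.8 CPM at D1, when EDL held 1.06, 0 and 0.952 CPM, and 9.89, 6.15 and 20.4 CPM at D7 against 3.63, 4.83 and 7.00 CPM in EDL. In control rats soleus held 14.7, 18.7 and 4.20 CPM and EDL 7.48, 13.4 and 5.70 CPM. The muscles overlapped in control rats and at D7, and neither phase had a call for this peak. The R1 difference was lower than that of control by 3.40 (SE 0.72, adjusted p = 0.00538) and than that of D7 by 4.18 (SE 0.74, adjusted p = 0.000990), under every alternative run for it.

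Start positions within peaks were compared by the tag-weighted mean position in each library, in nt from the 5′ end of the peak. Of 2086 peaks with at least 50 tags in every library, 0 were called at an adjusted p under 0.05 and a shift of at least 5 nt (limma, animal as a block), with 491 at an unadjusted p under 0.05 and a smallest adjusted p of 0.0528. Of the same peaks, 106 were called with no animal block, 30 on the median position and 2 among those with at least 100 tags. The dominant start was the same base in all 6 libraries for 1192 of 2086 peaks (57.1%). In 50 peaks it was fixed within each muscle and differed between them, by a median of 15 nt and at most 214 nt. The median size of the shift was 1.66 nt, and 1052 peaks (50.4%) shifted in the same direction in all rats. No reference share was computed for the latter, and the lack of calls does not show that starts were equal.

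The most even of the large shifts was in a broad peak at chr3:55909724-55911280 (plus strand). Its mean start lay 244, 287 and 296 nt from the 5′ end in soleus and 410, 461 and 454 nt in EDL of U18, U20 and U21, so that soleus started upstream in each rat. The mean difference was −166 nt (SE 3.81, adjusted p = 0.0622), which did not pass, and it passed among peaks with at least 100 tags, on the median position and with no animal block. The same peak was also more abundant in soleus, with 3366, 1666 and 1429 CPM against 462, 383 and 325 CPM in EDL (log2 fold change 2.37, SE 0.31, adjusted p = 0.00217). Its muscle difference at R1 exceeded that of control by 1.53 (SE 0.32, adjusted p = 0.00510) and that of D7 by 2.28 (SE 0.32, adjusted p = 0.000152). A shift of the other sign was at chr1:101325759-101326819 (plus strand), where the mean start was at 918, 868 and 785 nt in soleus and 521, 461 and 535 nt in EDL. The groups did not overlap, and the difference of 351 nt (SE 43.7) had an adjusted p of 0.110.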

How the data were processed

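CAGE libraries were made from frozen muscle. Per the labels and the study's methods, reads were trimmed with Trimmomatic and aligned to Rnor_6.0. The submitters' processing notes name Trimmomatic 0.38, BWA and HISAT2, whereas the methods name STAR for mapping, so the aligner of these tables is uncertain. Reads that mapped to several loci were kept, and starts were clustered into TSS peaks, by the methods in the samples of each muscle, while the table holds 1 set of peaks for both. The authors deposited raw tag counts per peak and, per library, counts per start position; summed over peaks, these equalled the peak counts in 179424 of 179424 values compared. The 42 normalized columns were not used.

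Counts of the 6 R1 libraries were filtered (filterByExpr), scaled by TMM and tested with the edgeR 4.0.16 quasi-likelihood test in R 4.3.3, with the animal as a block (median biological coefficient of variation 0.268, 2 residual degrees of freedom, median prior 4.2) and Benjamini-Hochberg adjustment. The labels tie both muscles to 1 rat. Deviations of the 2 muscles correlated at 0.155 (U18), 0.0322 (U20) and 0.235 (U21) over 9799 peaks. Differences between phases were contrasts in a fit of 42 libraries. Start positions were tested with limma 3.58.1, and DESeq2 1.42.0 was an alternative. Tests were tried on simulated data first. Levels are CPM after scaling. The value for a count of 0 is 3 tags over the group, 0.179 CPM in EDL and 0.0654 CPM in soleus, and covers counting error only. A fitted fold change for a peak with no tag in 1 muscle depends on the prior count and is no bound. Peaks were named by a fixed rule: the 15 largest log2 fold changes in each direction among called peaks with 1 direction in all rats and at least 10 CPM in the higher muscle, the 10 most abundant peaks, the plus-strand myosin region, the 5 largest changes of the muscle difference in each direction, and the 5 largest start shifts; the arrays and the peaks just beside a threshold were chosen after their values were seen. Figures and tables used Python 3.11.15. Planned lists of genes and of cell type markers were not used, since they needed an annotation of Rnor_6.0. The members and lists were chosen with earlier results of these data known.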

Additional observations from a re-analysis of the deposited data

Results flagged for a closer look

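The differences of muscle differences are listed here because the test of the difference itself passed. Between R1 and control rats 1101 peaks were called, and between R1 and D7 1535. Among the 94 myosin region peaks of at least 10 CPM, 32 differed between R1 and control rats, all toward EDL (log2 −6.02 to −3.77), against 5.15% of all peaks. Between R1 and D7, 1 of the 94 differed (−3.58), against 4.97% of all peaks in that direction.

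The largest named increases of the soleus-over-EDL log2 difference from control rats to R1 were 13.73 at chr13:27449917-27449943, 13.63 at chr6:146123854-146124110, 12.62 at chr12:12025508-12025565, 11.72 at chr13:50921094-50921134 and 11.50 at chr20:4958731-4958752. These sizes depend on the prior count where a muscle had no tag, and none of the 5 kept its call under every alternative. At the chr20 peak soleus ran from 2480 CPM in U18 through 305 in U20 to 0.322 in U21. Its change from control was 9.92 without U18, 11.87 without U20 and 11.48 without U21, each still called. The call was lost without control rat U6, with DESeq2 and with no replicate block. Increases of 10.30 at chr16:81639096-81639190, 10.50 at chr6:6328318-6328656 and 1.53 at chr3:55909724-55911280 were also called.

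Decreases from control rats to R1 were −8.06 at chr1:50421407-50421939, −7.46 at chr15:33613885-33613952, −6.69 at chr15:33621925-33622009, −6.60 at chr10:53719382-53719497, −6.19 at chr16:7294920-7295080, −3.40 at chr7:118130302-118130443 and −1.61 at chr19:56676367-56677617. The last lost its call under 7 alternatives: no composition factors, only the 12 libraries of both phases, and without U18 or U21 of R1 or U6, U7 or U8 of control. Without control rat U6, 9 of the 10 named for the largest changes from control lost their call, with log2 values from 8.69 to 13.93 and adjusted p from 0.0658 to 1 in the 5 increases.

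Against D7, the increases were 13.94 at chr2:198859131-198859278, 13.24 at chr16:81639096-81639190, 13.16 at chr13:109902790-109902978, 12.77 at chr6:6328318-6328656, 12.61 at chr10:67013998-67014156, 11.91 at chr18:32320690-32321035, 11.69 at chr1:220826664-220826835, 10.70 at chr1:261803805-261803952, 8.43 at chr13:50921094-50921134, 7.89 at chr20:4958731-4958752, 3.77 at chr8:55178466-55179112 and 2.28 at chr3:55909724-55911280. Decreases were −5.10 at chr15:33614994-33615057, −4.89 at chr10:53719382-53719497, −4.18 at chr7:118130302-118130443, −3.82 at chr2:242884532-242885037, −3.81 at chr1:197872917-197873064 and −3.80 at chr18:6782652-6782776. Of the 5 largest in each direction against D7, 3 increases and 3 decreases kept their calls under every alternative. The value of 7.89 at the chr20 peak lost its call with DESeq2 (adjusted p = 0.410) and without D7 rat U3. The 11.69, 10.70, 8.43 and −4.89 against D7, and the 10.30 and 10.50 against control rats, were not recomputed under the alternatives.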

How the results depend on the processing

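The number of peaks called between soleus and EDL at R1 stayed within 1.5 times of 3171 under every alternative: 3332 with DESeq2 (1850 higher in soleus), 3135 with RLE size factors, 3298 in the fit of 42 libraries, 3817 with no composition factors, 3192 with no filter, 2805 after thinning to the shallowest library, 4554 on the adjusted p alone, 3155 with near-copies counted once, and 2308 (without U21) to 3384 (without U18) with 1 rat left out. With no replicate block 3168 were called, and 1020 and 1498 for the changes from control and D7, where DESeq2 gave 1333 and 1878, only the 12 libraries of both phases 1218 and 1165 and no composition factors 798 and 1168. With 1 rat left out, the changes from control ran from 497 (without control U6) to 925 and those from D7 from 1010 (without D7 U3) to 1787. For shifts of the mean start, 0 peaks were called, 106 with no replicate block, 30 on the median position, 2 with at least 100 tags, 0 with at least 10 tags and 0 to 0 with 1 rat left out. No named peak with a call reversed its direction. The median log2 change of all peaks moved from −0.09 to 0.05 against control and from −0.02 to 0.13 against D7 with no composition factors. The 15 EDL-higher, 15 soleus-higher and 94 myosin peaks kept their calls in every alternative in which they were tested, which left out 7 myosin peaks and 1 soleus-higher peak after thinning and 1 soleus-higher peak in the fit of 42 libraries. Of the 10 most abundant, both called peaks lost the call under at least 1 alternative and the other 8 were called under none. The omission of composition factors for the changes between phases, the merging of near-copies and the array ratios and bounds with 1 rat or library left out were chosen after the data had been seen. The cause of these changes was not tested. The depth of the EDL libraries, 2635926 tags in U20, limits what can be seen there at low levels.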

Other observations

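By chromosome, the share of tested peaks called higher in soleus was largest on chromosome 15, with 110 of 313 (35.1%) against 19.6% of all peaks, and the arrays at chr15:33634468-33657899 and chr15:33607830-33627846 held 35 and 18 of these 110. The share called higher in EDL was largest on chromosome 10, with 181 of 847 (21.4%) against 12.8%, and 106 and 11 of these 181 lay on the plus and the minus strand of the myosin region. These shares were ordered after the values were seen and were not tested.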
